A study of Mus musculus with 8 samples.

Results

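The genes described here are 10 enzymes of serine, asparagine and one-carbon metabolism: Phgdh, Psat1, Psph, Shmt1, Shmt2, Mthfd2, Mthfd1l, Aldh1l2, Asns and Cth. They were taken by gene symbol from the 24505 rows of each deposited table, and all 10 were found and passed the filter of 1 RPKM (reads scaled to gene length and library size) or more in 2 or more libraries. Total RNA came from mouse embryonic stem cells of a line labelled INO80 CKO, a conditional knockout of Ino80, the gene of the catalytic subunit of a chromatin remodeller of the same name. Naive cells were grown in N2B27 medium with the inhibitors PD0325901 and CHIR99021 and LIF, and primed cells in N2B27 with FGF-2, Activin A and XAV-939. Each state had 2 libraries labelled wild type (WT) and 2 labelled knockout (KO), 8 in all, from the same line. For deletion the cells received 4-OHT at 100 nM over 2 days and were then cultured for 2 further days. The sources used here do not say whether the wild-type cells also received it, nor whether the pair of libraries in a group stems from separate cultures. The p-values below therefore reflect only the variation among these 8 libraries, which may be technical.

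Serine is made from a glycolytic intermediate by PHGDH, PSAT1 and PSPH, and serine hydroxymethyltransferases (SHMT1 in the cytosol, SHMT2 in mitochondria) pass one of its carbons to folate. In mitochondria MTHFD2, MTHFD1L and ALDH1L2 turn that carbon into formate or carbon dioxide, and formate supplies purine and thymidylate synthesis in the cytosol. Asparagine synthetase (ASNS) makes asparagine from aspartate, and cystathionine gamma-lyase (CTH) makes cysteine. Most of these genes are known targets of ATF4, the transcription factor of the amino acid and integrated stress responses.

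In the primed state 9 of the 10 genes fell in the knockout libraries, all but Shmt1, to between 3.37% and 33.4% of their wild-type mean. By the same test (limma, adjusted p under 0.05) 59.3% of all genes tested were lower there. In the naive state 5 fell, to between 61.1% and 83.5%, Cth rose, and 4 did not pass the test, against 5.85% of all genes lower and 6.08% higher. The difference between the 2 effects passed the test for the same 9 genes that fell in the primed state, and for 47.4% of all genes in that direction. In bulk RNA, fewer cells of a type and less RNA per cell cannot be told apart.

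As a check of the labels, Ino80 stood at 9.12 and 8.74 RPKM in the primed knockout libraries against 15.9 and 20.3 in wild type, but at 15.9 and 15.1 against 17.0 and 14.5 in the naive state, where the groups overlapped. The primed change was -0.93 ± 0.18 (limma adjusted p = 2.0e-06), or -0.26 after quantile normalization, and the naive one -0.020 ± 0.18 (limma adjusted p = 0.975). Relative to the median of all genes the primed change was -0.40, and it ranked 3146 from the bottom of the 13428 genes tested. A fall of this size was thus common in the primed libraries and not particular to Ino80. A gene-wide value also counts exons that a deletion may leave, so this is a weak check. The naive libraries are called labelled knockout below, and the name primed knockout also rests on the labels. Summed levels of 9 naive-state markers were 826 to 931 RPKM in the naive libraries, 3.43 to 3.49 in primed knockout and 8.18 to 11.4 in primed wild type. Those of 8 primed-state markers were 63.6 to 68.4 in the naive libraries labelled knockout, 45.4 to 56.1 in naive wild type, 317 to 343 in primed knockout and 339.9 to 400.2 in primed wild type. Deposited RPKM summed to between 341480 and 507598 per library, which is not a depth, and the depth is unknown. Tied values are shared within a state only, so the naive and primed libraries appear to have been scaled apart, and levels in the 2 states stand side by side below and were not tested against each other. Within a state whole libraries also differ. Wild-type replicates differed by a median of 0.30 on the log2(RPKM + 1) scale in the naive state (replicate 1 minus replicate 2) and by -0.32 in the primed state, and the median of all 13428 genes tested was -0.53 for primed knockout minus wild type and 0.049 for naive.

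Upstream sequences are shown for 3 genes with different primed values: Asns, which fell to 11.6% of wild type, Psat1, at 19.0%, and Shmt1, at 108%. They are the 250 bases before the start, 5′ to 3′ on the strand of the gene, from RefSeq on GRCm38.p6: Asns at chr6:7693210-7693459, Psat1 at chr19:15925060-15925309 (the upstream of its 2 starts) and Shmt1 at chr11:60811266-60811515, all on the minus strand. Capitals mark matches, on either strand, of TGATGNAA, the composite C/EBP-ATF element that ATF4 is known to bind, and of CCAAT, the box bound by NF-Y.
Asns: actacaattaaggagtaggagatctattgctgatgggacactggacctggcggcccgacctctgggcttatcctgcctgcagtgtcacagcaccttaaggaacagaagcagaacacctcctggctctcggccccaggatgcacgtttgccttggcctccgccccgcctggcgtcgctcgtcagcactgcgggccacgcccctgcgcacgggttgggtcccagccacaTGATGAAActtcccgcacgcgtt
Psat1: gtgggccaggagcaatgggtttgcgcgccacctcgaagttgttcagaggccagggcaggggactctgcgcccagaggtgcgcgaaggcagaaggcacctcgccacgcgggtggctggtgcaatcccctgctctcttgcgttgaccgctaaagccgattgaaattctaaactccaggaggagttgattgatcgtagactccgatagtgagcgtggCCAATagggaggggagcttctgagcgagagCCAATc
Shmt1: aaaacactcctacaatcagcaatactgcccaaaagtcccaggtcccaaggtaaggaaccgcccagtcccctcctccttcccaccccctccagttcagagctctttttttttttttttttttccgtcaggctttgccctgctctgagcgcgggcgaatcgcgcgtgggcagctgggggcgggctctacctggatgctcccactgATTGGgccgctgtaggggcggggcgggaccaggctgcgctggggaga
Windows were found for 8 of the 10 genes, 9 windows in all, and not for Aldh1l2 and Cth. TGATGNAA was present in 1 of the 9, that of Asns, 23 to 16 bases before the start, and in 3.45% of all 32851 upstream windows of this length. CCAAT was present in 5 of the 9, those of Phgdh, Psat1, Psph, Shmt1 and Mthfd2, against 33.8% of all windows. The GC box GGGCGG was present in 5 of the 9 against 32.7%, and the E-box CACGTG in 0 of the 9 against 6.02%. Different motifs shared no base in the 9 windows, 2 GGGCGG matches of Shmt1 shared 1 base, and a match is a description of the letters only.

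**Figure D1:**
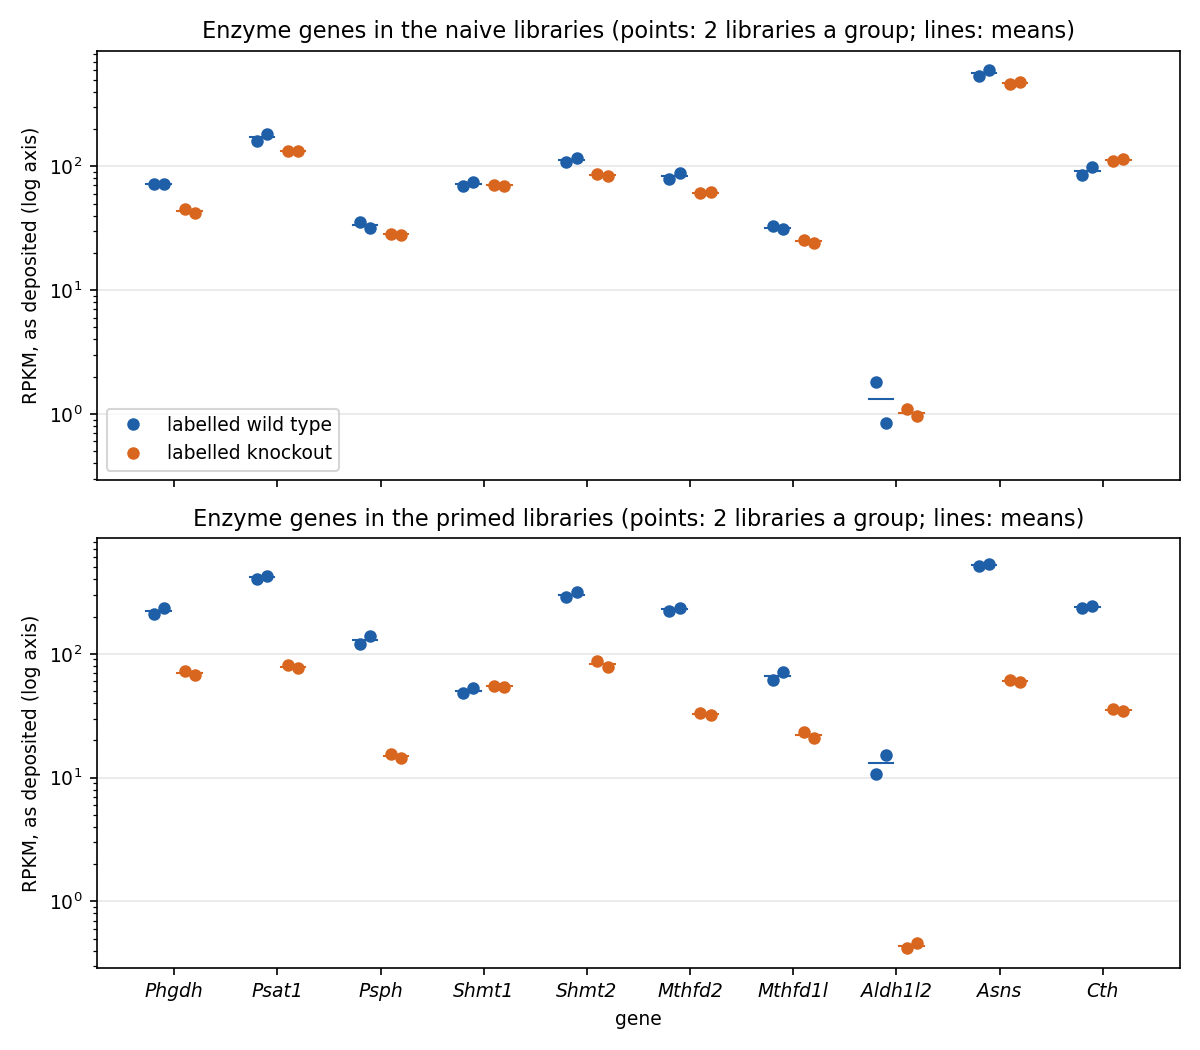
RPKM as deposited (log axis) of the 10 enzyme genes in the naive (top) and primed (bottom) libraries; each point is 1 of 2 libraries a group, and lines are group means. In the primed state the knockout libraries lie below wild type for every gene but Shmt1. In the naive state the groups lie closer together for these genes, and only those of Shmt1 and Aldh1l2 overlap.

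All 3 genes of the serine synthesis route fell in the primed knockout libraries. Phgdh, the gene of the dehydrogenase that commits phosphoglycerate to serine, stood at 72.9 and 67.2 RPKM in knockout against 208 and 232 in wild type. The groups were apart, and the change was -1.64 ± 0.096 (log2(RPKM + 1), knockout minus wild type, ± SE). Psat1, the gene of the transaminase of the second step, stood at 80.8 and 76.6 RPKM against 405 and 423, a change of -2.38 ± 0.084. Psph, the gene of the phosphatase that releases serine, stood at 15.5 and 14.5 against 119 and 140, a change of -3.02 ± 0.12. The knockout means were thus 31.8%, 19.0% and 11.6% of wild type along the route, the smallest loss at Phgdh and the largest at Psph. Within a library the ratio of Phgdh to Psat1 was 0.902 and 0.876 in primed knockout against 0.514 and 0.549 in wild type.

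The hydroxymethyltransferases of the 2 compartments parted in the primed state. Shmt2, the mitochondrial enzyme, fell to 86.7 and 78.0 RPKM against 286 and 314, a change of -1.85 ± 0.088. Shmt1, the cytosolic enzyme, stood at 55.2 and 53.8 RPKM in knockout against 48.3 and 52.8 in wild type, slightly higher in both knockout libraries, which did not pass (0.11 ± 0.10, limma adjusted p = 0.367). Relative to the median of all genes Shmt1 was 0.64 higher. The 1118 genes with a mean level close to that of Shmt1 had a less negative median, -0.33, and 89.4% of them changed to a lower value than Shmt1. Shmt1 did pass after quantile normalization, which gives all libraries the same distribution of values (0.53, limma adjusted p = 6.3e-06). The ratio of Shmt2 to Shmt1 within a library was 5.92 and 5.95 in primed wild type and 1.57 and 1.45 in primed knockout. In the naive state it was 1.56 and 1.57 in wild type and 1.23 and 1.20 in the libraries labelled knockout.

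The mitochondrial folate enzymes among the 10 all fell in the primed state. Mthfd2, the dehydrogenase and cyclohydrolase that follows SHMT2, stood at 33.2 and 32.0 RPKM in primed knockout against 222 and 236 in wild type, a change of -2.77 ± 0.098. Mthfd1l, the synthetase that releases formate, stood at 23.4 and 21.1 against 61.1 and 71.9, a change of -1.54 ± 0.13, the smallest among the 9 that fell. Aldh1l2, the formyl-tetrahydrofolate dehydrogenase of mitochondria, stood at 0.419 and 0.462 RPKM against 10.8 and 15.3, or 3.37% of wild type, a change of -3.27 ± 0.28. It was the weakest of the 10 in all 4 groups, so the pseudocount of 1 shrinks its change, and with a pseudocount of 0.1 the change was -4.58. The 4 mitochondrial genes, Shmt2 among them, summed to 144 and 132 RPKM in primed knockout against 579 and 637 in wild type. Mthfd1, the trifunctional enzyme of the cytosol and not among the 10, moved the other way, at 129 and 125 RPKM against 88.9 and 100.4 (0.42 ± 0.088, limma adjusted p = 6.3e-06). The ratio of Mthfd2 to Mthfd1 was 0.256 and 0.257 in primed knockout and 2.49 and 2.35 in wild type, and in the naive state 0.403 and 0.404 against 0.629 and 0.621. Ratios within a library cancel a factor common to the library, and they were not tested. They do not cancel a shift that depends on level. Naive wild-type replicates differed by a median of 0.50 among low genes and 0.031 among high genes.

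**Figure D2:**
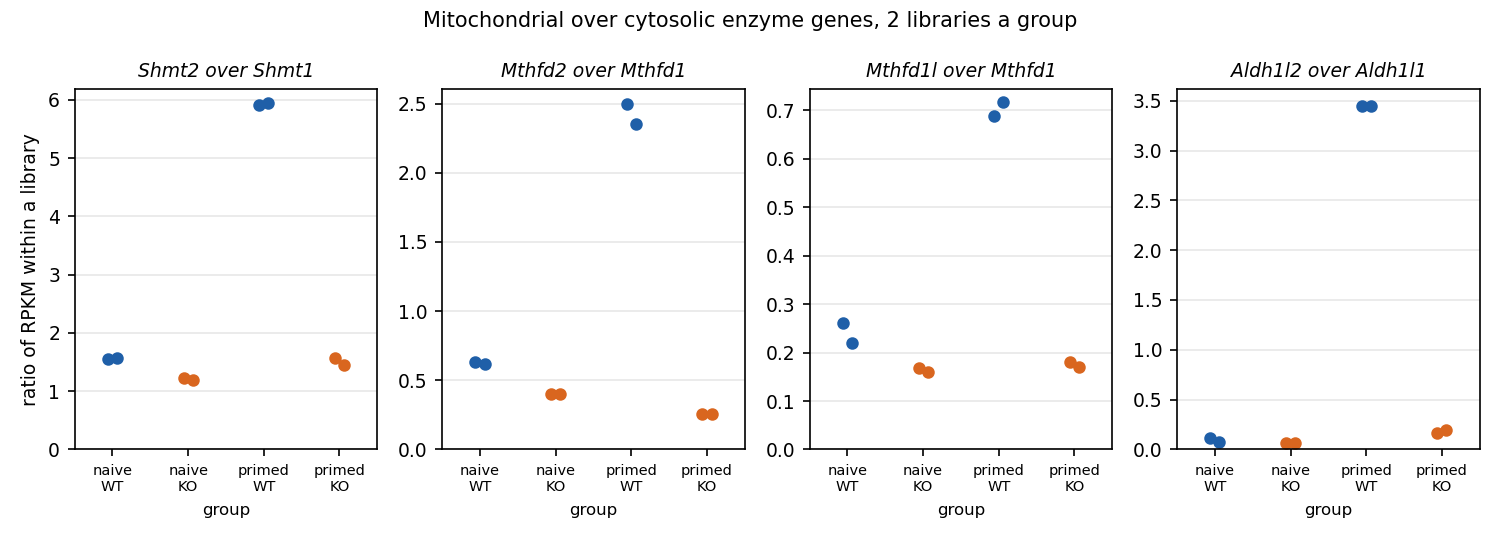
Ratio of the RPKM of a mitochondrial to a cytosolic folate enzyme gene within each library, 2 libraries a group (blue wild type, orange labelled knockout), with a separate axis from 0 in each panel. In the primed state wild type stands above knockout in every panel, at 5.92 and 5.95 against 1.57 and 1.45 for Shmt2 over Shmt1. The states were not compared.

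Asns and Cth, which make asparagine and cysteine, fell to 11.6% and 14.6% of wild type. Asns stood at 61.5 and 59.0 RPKM in primed knockout against 512 and 529 in wild type, a change of -3.09 ± 0.076. It was the strongest of the 10 in naive wild type, the naive libraries labelled knockout and primed wild type but only the fourth in primed knockout, after Shmt2, Psat1 and Phgdh. Cth stood at 35.8 and 34.5 RPKM against 235 and 245, a change of -2.74 ± 0.093. The ratio of Cth to Cbs, the gene of the enzyme before it in transsulfuration, was 2.58 and 2.64 in primed knockout against 22.9 and 17.9 in wild type.

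All 9 falls passed the test, and the largest limma adjusted p among them was 7.1e-30, for Aldh1l2. Most genes were lower in these libraries: 59.3% of the 13428 genes tested were called lower and 4.16% higher, and 20.6% were called and lower by 2-fold or more, as all 9 were. In 76.4% of genes both knockout libraries lay below both wild-type ones, as for these 9, and in 6.77% above, as for Shmt1. The median of the 10 was -2.56 against -0.53 for all genes. After quantile normalization 34.6% of genes were lower and 39.4% higher, and the 9 remained lower, with changes of -1.10 for Mthfd1l to -2.69 for Asns and a largest adjusted p of 1.0e-07, for Phgdh (limma). With median centring 23.6% were lower and 41.6% higher, and the median of all genes was 0.16. The 9 still passed, from -0.84 for Mthfd1l to -2.57 for Aldh1l2. As deposited, the falls of Aldh1l2, Asns and Psph ranked 27, 36 and 41 from the bottom of all genes, those of Mthfd2, Cth and Psat1 62, 64 and 118, and those of Shmt2, Phgdh and Mthfd1l 388, 641 and 810. In the same libraries 7 markers of mesoderm and primitive streak, of which Mixl1, Mesp1 and Hand1 were below 1 RPKM in every library, summed to 42.2 and 45.9 RPKM in knockout against 5.35 and 7.41 in wild type, and 8 fibroblast markers, of which Pdgfra and Lum were below 1 RPKM throughout, to 15.8 and 16.7 against 38.7 and 53.1. The 8 markers of neural and surface ectoderm, of which Neurog2 and Krt14 were below 1 RPKM throughout, summed to between 238 and 253 RPKM in knockout and 198 and 234 in wild type. Shared pluripotency markers summed to between 989 and 1093 RPKM in knockout and 1095 and 1233 in wild type, endoderm markers, of which Sox7, Foxa2 and Afp were below 1 RPKM throughout, to between 2.63 and 2.97 and 3.93 and 6.04, and naive-state markers were lower in knockout, as given above. The part of these marker differences in the falls was not tested.

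**Figure D3:**
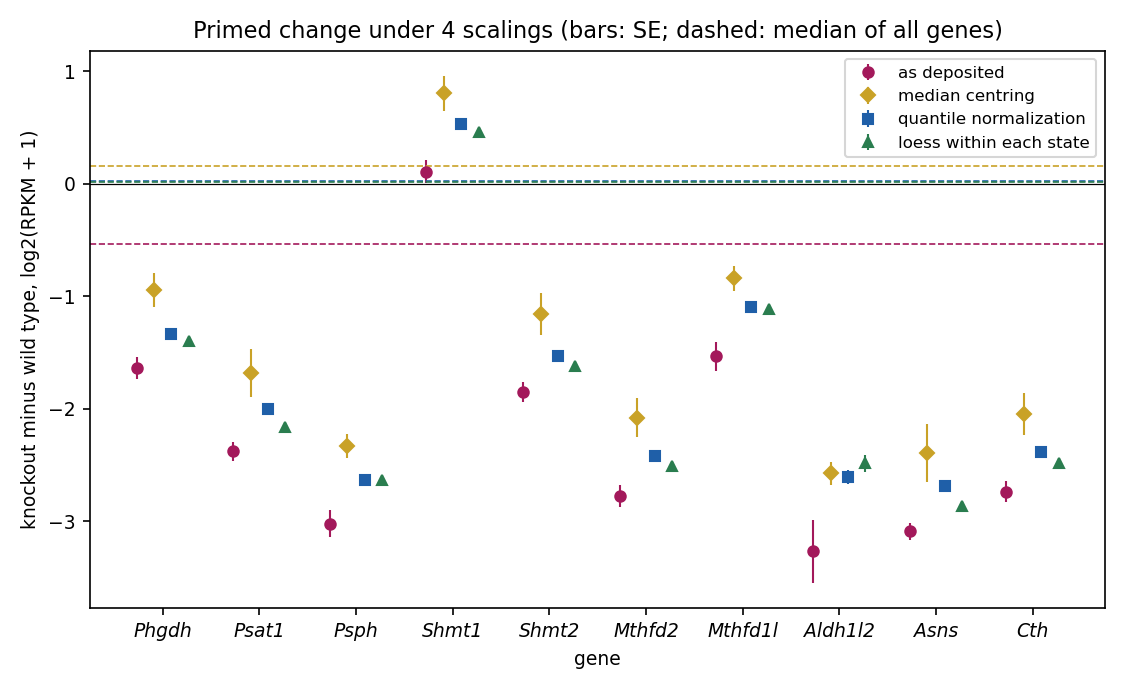
Primed change (knockout minus wild type, log2(RPKM + 1), bars SE) of each gene under 4 scalings, with the median of all genes under each as a dashed line. In each scaling 9 genes lie below the line and Shmt1 above it, at 0.11 as deposited and 0.80 with median centring.

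For 5 genes neighbours or copies may bear on the values, and whether they did is unknown. The sources used here do not state which strand was counted or how reads shared by genes were treated. The overlaps below are on GRCm38, whereas the authors used mm9. In the GENCODE M21 annotation 14.1% of the exon bases of Aldh1l2 also belong to D10Wsu102e on the other strand, which stood at 40.0 and 36.8 RPKM in primed knockout against 21.9 and 25.5 in wild type, opposite to Aldh1l2. Psph shares 10.4% with Cct6a, at 301 and 295 RPKM against 286 and 304, and Shmt1 shares 4.74% with Smcr8, at 9.98 and 9.02 against 10.8 and 14.0. Shmt2 shares 1.03% with Ndufa4l2, which stood at 0.338 and 0.201 RPKM in primed knockout against 0.932 and 1.81 in wild type, below it as for Shmt2, and did not pass the filter for testing. Phgdh has a processed copy, Phgdh-ps1, and how reads shared with it were counted is not stated.

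Among the naive libraries Phgdh, Mthfd2, Shmt2, Psat1 and Asns fell, Cth rose, and Mthfd1l, Psph, Aldh1l2 and Shmt1 did not pass. Phgdh showed the largest change of the 10, with 45.5 and 42.2 RPKM in those labelled knockout and 72.1 and 71.6 in wild type (-0.70 ± 0.096, limma adjusted p = 4.8e-11). Mthfd2 had 60.4 and 61.5 RPKM against 79.2 and 87.5 (-0.44 ± 0.098, limma adjusted p = 1.6e-04). Shmt2 stood at 87.2 and 82.8 against 108 and 118, a change of -0.41 ± 0.088, and Psat1 at 132 and 133 against 161 and 182, a change of -0.37 ± 0.084. These falls were to between 61.1% and 77.1% of wild type, and the groups of all 4 genes were apart.

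The naive values of Asns and Cth went in opposite directions. Asns had 466 and 479 RPKM against 536 and 596 (-0.26 ± 0.076, limma adjusted p = 0.00933), and Cth had 109.6 and 114 against 85.8 and 98.2 (0.28 ± 0.093, limma adjusted p = 0.0242). Neither call is stable. Asns lost its call after quantile normalization (-0.076, limma adjusted p = 0.154) and without replicate 1 or 2 of the naive libraries labelled knockout or naive wild-type replicate 2 (limma adjusted p = 0.274, 0.141 and 0.104). Cth kept its call after quantile normalization (0.27, limma adjusted p = 3.7e-04) but lost it without either naive library labelled knockout (0.236 and 0.456), naive wild-type replicate 1 (0.265) or either primed knockout library (0.0548 and 0.0556). Shmt2 lost its call without replicate 2 of the naive libraries labelled knockout (-0.37). With median centring Shmt2, Psat1, Asns and Cth lost their calls (limma adjusted p = 0.0745, 0.148, 0.395 and 0.4). Without a variance trend only Phgdh kept its call, and Mthfd2, Shmt2 and Psat1 did not pass (limma adjusted p = 0.119, 0.163 and 0.202).

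Mthfd1l stood at 25.3 and 24.2 RPKM in the naive libraries labelled knockout against 32.9 and 30.9, a difference of -0.35 ± 0.13 just short of the threshold (limma adjusted p = 0.051), and Psph at 28.5 and 27.9 against 35.3 and 31.9 (-0.24 ± 0.12, limma adjusted p = 0.219). Neither pair of groups overlapped. Both genes passed after quantile normalization (-0.37 and -0.28, limma adjusted p = 2.9e-05 and 5.4e-04) and when either primed wild-type library was left out (limma adjusted p of at most 7.5e-04 for Mthfd1l and 0.0302 for Psph). Aldh1l2, at 1.10 and 0.954 RPKM against 1.81 and 0.845, and Shmt1, at 70.9 and 69.1 against 69.7 and 75.1, overlapped between the groups. Among all genes 5.85% were called lower and 6.08% higher in the naive state, and for 21% both libraries labelled knockout lay below both wild-type ones, as for 7 of the 10, and for 31.2% above, as for Cth. The median of the 10 was -0.31, and after quantile normalization 7 were lower and 1 higher, when 27.5% of genes were lower and 31.9% higher. Without replicate 2 of the naive libraries labelled knockout only 3 of the 10 were called, and 8 were without primed wild-type replicate 1. The ectoderm markers summed to between 90.3 and 93.7 RPKM in the naive libraries labelled knockout and 48.8 and 58.2 in wild type. Primed-state markers summed to 63.6 to 68.4 against 45.4 to 56.1 RPKM, and 6 pluripotency markers shared by both states to 1523 to 1531 against 1344 to 1469. The part of these marker differences in the naive values was not tested.

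**Figure D4:**
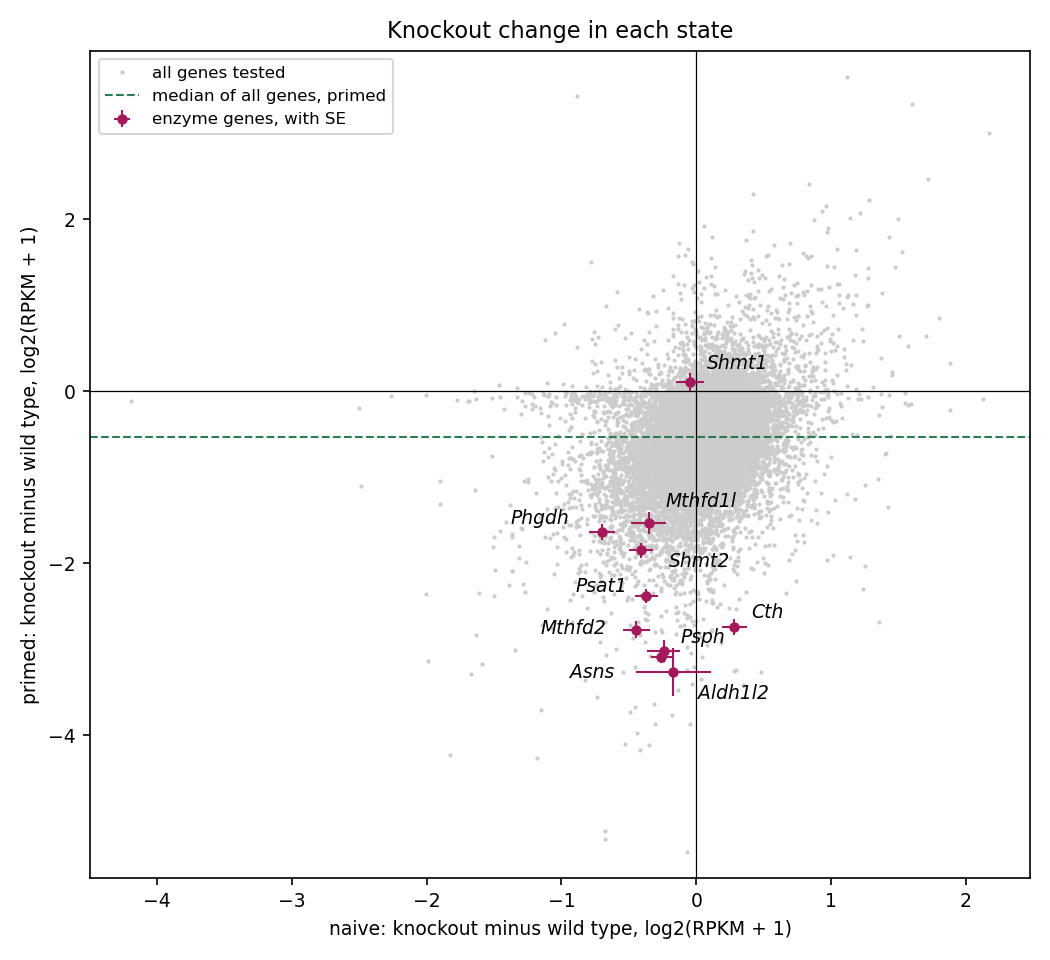
Change in the naive (x) and primed (y) state, both as log2(RPKM + 1), knockout minus wild type, of all 13428 genes tested (grey) and of the 10 enzyme genes with SE bars. Of the 10, 9 lie below the median of all genes (dashed, -0.53) in the primed state and between -0.70 and 0.28 in the naive state, and Shmt1 lies near zero in both.

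The primed effect exceeded the naive one for 9 of the 10 genes, tested as the difference between the 2 effects (primed minus naive). Cth had a difference of -3.02 ± 0.13, since it rose slightly in one state and fell in the other, and Aldh1l2 of -3.10 ± 0.39. Phgdh, with the largest naive fall, had the smallest difference among the 9, -0.94 ± 0.14 (limma adjusted p = 2.4e-10), or -0.61 after quantile normalization (limma adjusted p = 9.4e-05), and it did not pass with median centring (-0.19, limma adjusted p = 0.496). Shmt1 had a difference of 0.16 ± 0.15 (limma adjusted p = 0.37). In all, 47.4% of genes had a difference called lower and 2.16% higher, and 30.5% and 33.9% after quantile normalization, when the same 9 were lower and Shmt1 was higher by 0.57. With median centring the shares were 17.1% and 29.2%, and the median difference of all genes was 0.16. As deposited the median difference was -2.17 for the 10 and -0.59 for all genes.

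The levels of the 10 differed widely, and RPKM is per length, so the deposited values are set in order here. How they were scaled further is not stated, so the order holds for these values only. In primed wild type the order of means was Asns (520.3 RPKM ± 12.4, SD, n = 2), Psat1, Shmt2, Cth, Mthfd2, Phgdh, Psph, Mthfd1l, Shmt1 and Aldh1l2 (13.1 ± 3.23). Cth and Mthfd2 overlapped there, and so did Mthfd2 and Phgdh. In primed knockout the order was Shmt2 (82.4 ± 6.21), Psat1, Phgdh, Asns, Shmt1, Cth, Mthfd2, Mthfd1l, Psph and Aldh1l2 (0.441 ± 0.0308), with an overlap between Shmt2 and Psat1. Shmt1 was thus the ninth in primed wild type and the fifth in primed knockout. In naive wild type Asns (566 ± 42.7) led Psat1, Shmt2, Cth, Mthfd2, Shmt1, Phgdh, Psph, Mthfd1l and Aldh1l2 (1.33 ± 0.686), and Cth with Mthfd2, Shmt1 with Phgdh and Psph with Mthfd1l overlapped. In the naive libraries labelled knockout Cth stood before Shmt2 and Shmt1 before Mthfd2, and no neighbours overlapped. The 10 together made up 0.476% and 0.445% of all RPKM in primed wild type and 0.129% and 0.128% in primed knockout. In the naive state the shares were 0.293% and 0.319% in wild type and 0.254% and 0.260% in the libraries labelled knockout.

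Of the factors around ATF4, Atf4 itself stood at 130 and 122 RPKM in primed knockout against 384 and 400.4 in wild type, a change of -1.63 ± 0.080, and at 194 and 189.7 against 216 and 252 in the naive state (-0.28 ± 0.080, limma adjusted p = 0.00605). Ddit3, the gene of the stress factor CHOP, stood at 9.16 and 8.35 RPKM against 105 and 122 in the primed state, a change of -3.55 ± 0.17. Its naive values overlapped between the groups, at 10.5 and 9.46 against 9.47 and 6.52. The list of this branch holds 23 genes: sensors, factors, feedback genes and further stress-induced genes such as Stc2. Of the 23, 21 were lower and 1 higher in primed knockout (median -1.85), where 59.3% of all genes were lower. After quantile normalization 20 and 2 were, where 34.6% of all genes were lower. Of the sensor kinase genes, Eif2ak3 and Eif2ak4 changed by -0.71 and -0.87, against a median of -0.53 for all genes, and Eif2ak2 did not pass (-0.27, limma adjusted p = 0.397). The feedback pseudokinase Trib3 changed by -5.36, the glutathione-degrading enzyme Chac1 by -5.11 and the stress-induced chromatin protein Nupr1 by -4.23, while the kinase gene Eif2ak1 rose by 0.36. Naive calls went to 5 of the 23 as lower and 3 as higher. Nupr1, Stc2 and Chac1 were lower (-1.83, -0.73 and -0.68) and Atf3, Sesn2 and Ddit4 higher (0.80, 0.73 and 0.52), so this list went both ways there.

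Counts for the enzymes next to the 10 in metabolism stand against 59.3% of all genes lower and 4.16% higher as deposited, and 34.6% and 39.4% after quantile normalization. Of 20 tested genes of the other folate and one-carbon enzymes, 10 were lower and 1 higher in primed knockout (median -0.46, near that of all genes), and 7 and 12 after quantile normalization (median 0.18). Dmgdh, among the 20, stood at no more than 0.0316 RPKM in any primed library and could not be called lower there as deposited. The second mitochondrial dehydrogenase Mthfd2l changed by -1.12 and the glycine cleavage gene Amt by -1.11, and Mthfd1, given above, was the 1 that rose. Of 13 purine synthesis genes 6 were lower and 2 higher (median -0.14), a share lower that is below that of all genes, and 4 and 7 after quantile normalization (median 0.13). Among them Prps1, Pfas and Adsl changed by -1.39, -0.64 and -0.50, and Atic, whose enzyme uses formyl-folate, and Impdh1 rose by 0.54 and 0.37. After quantile normalization Adsl no longer passed (-0.052, limma adjusted p = 0.112). With median centring, where the median of all genes was 0.16, Pfas and Adsl stood at 0.057 and 0.19 and neither passed.

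Of 13 genes of the methionine cycle and transsulfuration 7 were lower and 1 higher in primed knockout (median -0.40), a share lower near the 59.3% of all genes, and 5 and 4 after quantile normalization (median -0.029). Bhmt and Bhmt2, among the 13, stood at no more than 0.0898 and 0.0452 RPKM in any primed library. At such levels they could not be called lower there as deposited, and the median of -0.029 is the value of Bhmt. The sulfurtransferase gene Mpst changed by -2.58, Ahcyl2 by -1.62 and the spermine synthase gene Sms by -1.11. Mat2a, whose enzyme makes S-adenosylmethionine, rose in both states, to 144 and 137 RPKM against 69.2 and 77.7 in the primed state (0.93 ± 0.087) and to 187 and 192 against 139.9 and 159 in the naive state (0.34 ± 0.087, limma adjusted p = 0.00179). Of 21 other enzymes of non-essential amino acids 17 were lower and 1 higher (median -0.64), and 12 and 5 after quantile normalization, with a median of -0.085. Gpt2, the mitochondrial alanine transaminase, stood at 4.10 and 4.05 RPKM against 85.2 and 97.2, a change of -4.18 ± 0.15. Pycr1, the proline-making reductase, stood at 2.42 and 2.12 RPKM against 41.7 and 52.3 (-3.87 ± 0.21), and the asparaginase gene Asrgl1 fell by 2.75. Ass1, the argininosuccinate synthase gene, was the 1 that rose, to 34.1 and 32.6 RPKM against 10.02 and 13.4, a change of 1.44 ± 0.11.

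In the naive comparison 3 of 20 genes of the folate list, 4 of 13 of the methionine list, 2 of 21 of the amino acid list and 1 of 13 of the purine list were called, where 6.08% of all genes were higher and 5.85% lower. Of the folate list Mtr was higher (0.42) and Gldc and Dmgdh lower (-0.47 and -0.91), of the amino acid list Gpt2 and Asrgl1 were lower (-0.42 and -1.07), and of the purine list Prps1 was lower (-0.50). Of the methionine list 3 were lower and Mat2a higher.

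**Figure D5:**
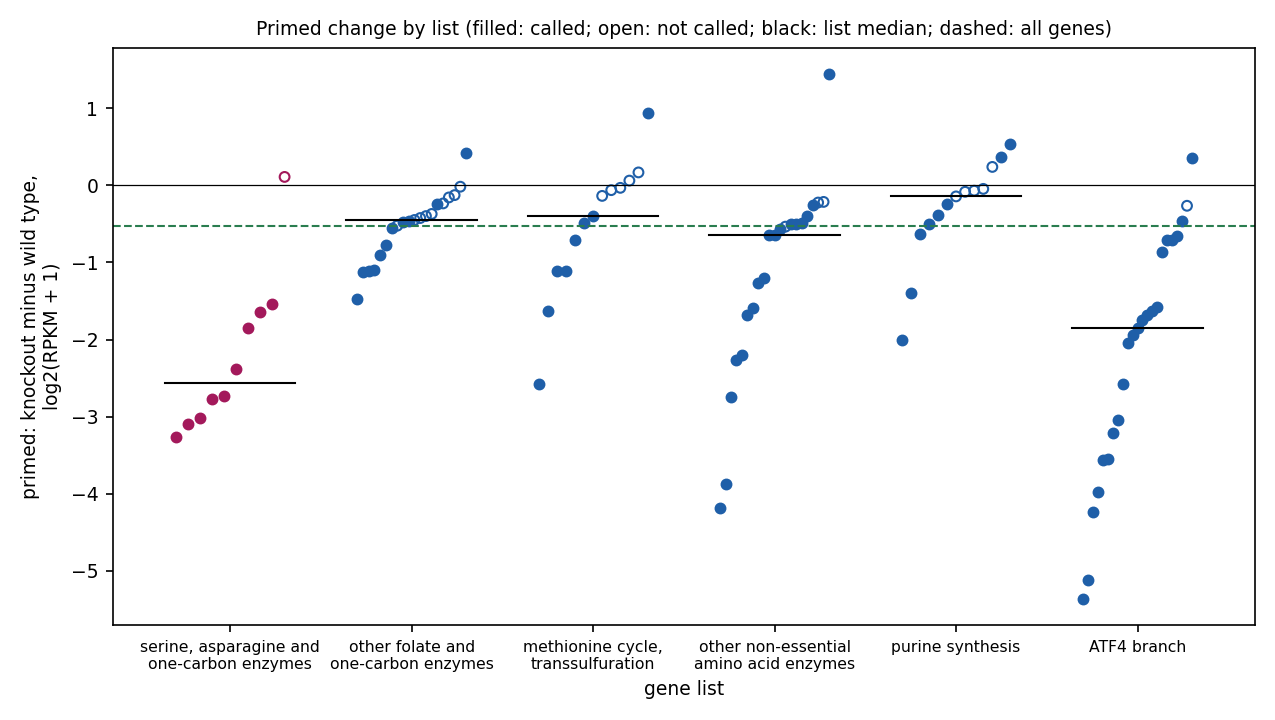
Primed change (knockout minus wild type, log2(RPKM + 1)) of each tested gene of the 10 enzymes (red) and of 5 other lists (blue), filled where called at a limma adjusted p under 0.05, with list medians in black and the median of all genes dashed. The medians are -2.56 for the 10 enzymes and -1.85 for the ATF4 branch, and between -0.64 and -0.14 for the other 4.

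Aldh1l2 had the largest primed change of the 10, and the 5 tested genes with the profile nearest to it were Acot2, Adgra2, Angptl6, Slc6a9 and Tsc22d3. Likeness was measured as the Euclidean distance over the 8 libraries of log2(RPKM + 1) centred within each state, among genes with a mean of at least 5 RPKM, and the distances ran from 0.185 to 0.326. The primed falls and small naive changes of the 5 thus follow from how they were chosen. Acot2, an acyl-CoA thioesterase gene, stood at 1.10 and 1.16 RPKM in primed knockout against 14.9 and 21.1 in wild type. Slc6a9, a glycine transporter gene, stood at 2.62 and 2.48 against 28.4 and 37.5. Adgra2, Angptl6 and Tsc22d3 changed by -3.35, -3.47 and -3.08 in the primed state, and none of the 5 passed in the naive state as deposited, where Acot2 and Tsc22d3 did after quantile normalization (-0.26 and -0.39, limma adjusted p = 0.0147 and 0.00148).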

How the data were processed

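RNA of 8 libraries of mouse embryonic stem cells was measured after removal of ribosomal RNA, with ERCC spike-in RNA added to the lysate, per the labels' protocols. With no parameters or strand given, the tools are, per the submitters' processing notes, affy, featureCounts 1.5.1, STAR 2.5.2b, cutadapt 1.9 and the mouse build mm9. The deposited values are RPKM per gene that the authors had scaled further, by what method is not stated: 0 values are 0, ties are shared within a state only, and 0 spike-in rows are present. Depth is therefore unknown.

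Values were taken as log2(RPKM + 1), which understates changes of low genes. The 13428 genes reaching 1 RPKM in 2 libraries or more were fitted with 4 group means in limma 3.58.1 (R 4.3.3) with a variance trend, and p-values were adjusted by Benjamini-Hochberg over all of them at a threshold of 0.05. Prior degrees of freedom were infinite, so each gene took its variance from the trend and adjusted p are very small. After quantile normalization they were 3.71, and the median residual SD fell from 0.179 to 0.0478. The planned test between states was not made because the states appear to have been scaled apart. The procedure was checked on simulated data with independent noise and no shift of whole libraries, so the check does not cover such shifts. Python 3.11.15 with matplotlib 3.10.9 drew the figures.

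The 10 genes, the lists and the alternatives were chosen with earlier results of these data known. Named besides the 10 are Ino80, Atf4, Ddit3, up to 3 called genes per direction, state and list with the largest change (groups apart, higher mean at least 5 RPKM), and the 5 genes nearest to the member with the largest primed change; 1 gene under this rule is not reported here. Mthfd1, Cbs, Aldh1l1, used in ratios, the sensor kinase genes Eif2ak2, Eif2ak3 and Eif2ak4, and genes overlapping a member were named after their values were seen. Upstream windows were searched as the 250 bases before each start, leaving out the 50 after it. Alternatives were a pseudocount of 0.1, no filter or one of 5 RPKM, median centring, quantile and loess normalization, each state alone, leaving out each library, weighting libraries, dropping the trend and a block for the replicate number.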

Additional observations from a re-analysis of the deposited data

Results flagged for a closer look

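The change in the libraries labelled knockout differed between the states for 9 of the 10 genes. This was by the test of the difference itself (primed minus naive, log2(RPKM + 1), limma, adjusted over all genes), where 47.4% of all genes were called lower. Ino80 was not lower in the naive libraries labelled knockout (-0.020 ± 0.18), so a deletion there rests on the labels. The differences were -0.94 for Phgdh, -2.01 for Psat1 and -2.78 for Psph in serine synthesis. They were -1.44 for Shmt2, -2.33 for Mthfd2, -1.18 for Mthfd1l and -3.10 for Aldh1l2 in mitochondrial folate metabolism. Asns had -2.83 and Cth -3.02. Of these, Phgdh and Mthfd1l had the largest adjusted p (2.4e-10 and 2.7e-09).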

How the results depend on the processing

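In the primed state 9 genes passed as lower under all 18 alternatives, and Shmt1 passed as higher under 3 of them, the scalings. The difference passed as lower for 9 genes under 16 of 17 alternatives and for 8, without Phgdh, with median centring. For Shmt1 it passed as higher under 3, the scalings. In the naive state only Phgdh kept its call throughout. Naive genes called numbered 4456 with median centring, 7967 with quantile and 7719 with loess normalization, 2526 with the naive state alone and 908 without a variance trend, against 1602, and leaving out a library gave 552 to 2946. Of the 10, naive calls numbered 6, 1 without a trend (Phgdh), and 3 to 8 leaving out a library. Leaving out a library gave 5539 to 9960 primed calls, against 8517, and 3457 to 9269 for the difference, against 6658. The naive sign turned for Shmt1 without naive wild-type replicate 2 (0.0058, range -0.0985 to 0.0058 leaving out a library) and for Aldh1l2 without naive wild-type replicate 1 (0.13, range -0.48 to 0.13). Deviations of same-numbered libraries correlated at 0.31 (naive) and -0.036 (primed) across genes, and the labels do not say that numbers pair libraries. With the replicate block 942 naive genes and 4 of the 10 were called, and Asns and Cth did not pass (limma adjusted p = 0.109 and 0.229). Depth is unknown, so the precision of low values such as those of Aldh1l2 cannot be given.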

Other observations

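Bhmt, Bhmt2 and Dmgdh of the methionine and folate lists were lower in the naive libraries labelled knockout. Bhmt, the gene of betaine-homocysteine methyltransferase, stood at 3.09 and 2.83 RPKM against 11.1 and 8.69 in wild type (-1.45 ± 0.27, limma adjusted p = 4.0e-06). Bhmt2, a close relative in sequence, stood at 4.76 and 4.57 against 13.5 and 11.04, a change of -1.22 ± 0.28, and how reads shared by both genes were counted is not stated, which leaves both values uncertain. Dmgdh, the gene of dimethylglycine dehydrogenase, stood at 9.01 and 9.05 RPKM against 19.3 and 16.5 (-0.91 ± 0.28, limma adjusted p = 0.015). Mpst of the same list fell by 0.63 (limma adjusted p = 0.0254). In the primed state Bhmt, Bhmt2 and Dmgdh were all below 0.1 RPKM in every library.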
